A study of Mus musculus with 6 samples.

Results

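The resting left ventricle of the littermate control (LC) mice is described here, as the reference state against which the study set its cardiomyocyte-specific NCoR1 knockout. Members were chosen by their label alone: the 3 libraries LC 15, LC 25 and LC 26 of the 6 libraries of the series, each from 1 mouse. The mice were on a C57BL6/J background and 2 months old. Knockout (CMNKO) mice were obtained from floxed NCoR1 mice and a Cre transgene driven by the αMHC promoter, which is active in cardiomyocytes, and the LC mice were their littermates. The alleles and the sex of the single LC mice are not stated in the labels or the methods. The tissue was left ventricle without separation of its cells, so RNA of all cell types of the sampled piece was measured together.

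Reads were counted per gene for 17121 gene symbols. The totals were 6319488 counts in LC 15, 6650131 in LC 25 and 8269911 in LC 26, in a series that ranged to 8752609. Counts were scaled to CPM (counts divided by the library's total, times 1000000), so that 1 read was worth 0.158 CPM in LC 15, 0.15 CPM in LC 25 and 0.121 CPM in LC 26. Levels of different genes were ranked after division by the length of the longest annotated transcript (CPM per kilobase), since a long mRNA gives more reads than a short mRNA of equal abundance. Where CPM of different genes stand side by side, they compare reads and not abundance. With 1 group of 3 mice there was no test, and the spread among mice stands in its place. Library numbers in the labels put LC 15 in the run of numbers of the CMNKO libraries, and LC 25 and LC 26 in a later run. Across 12748 to 12914 genes with at least 20 reads in a pair, the chi-square per degree of freedom was 25.8 for LC 15 against LC 25, 25.2 for LC 15 against LC 26 and 8.67 for LC 25 against LC 26. All pairs thus differed by more than counting error, and LC 15 stood farther from both others than these stood from each other.

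The ventricle is a pump made largely of cardiomyocytes. Each of these cells is packed with sarcomeres, in which thick filaments of myosin pull on thin filaments of actin, troponin and tropomyosin when calcium is released from the sarcoplasmic reticulum. Its mitochondria burn mostly fatty acids to regenerate the ATP that myosin and the calcium pump use, and myoglobin and creatine kinase buffer oxygen and high-energy phosphate. Fibroblasts, endothelial cells, pericytes and macrophages make up most of the other cells of the wall.

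The promoters of the sarcomere genes are shown first, because these genes took 14.3% to 16.4% of the nuclear reads and their start regions are known to hold sites for muscle transcription factors. Serum response factor binds the CArG box, and TEAD factors bind the M-CAT element. Among the 20 nuclear genes with the highest levels per kilobase, 5 sarcomere genes had a searched motif in the 120 bases before an annotated start. Myl2, Tnni3 and Myh6 had none there, nor did a further start of Tnnt2, and Tcap had no promoter window. The share of all promoters with a motif in so short a stretch was not computed. The stretches below are RefSeq sequence of build GRCm38.p6 on the coding strand, and capitals mark the CArG box (Actc1, Myl3) or the M-CAT element CATTCC in either direction (Tpm1, Tnnc1, Tnnt2).
Actc1, chr2:114052876-114052995, minus strand: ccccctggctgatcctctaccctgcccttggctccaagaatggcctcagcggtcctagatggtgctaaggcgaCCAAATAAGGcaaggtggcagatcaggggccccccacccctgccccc
Myl3, chr9:110763558-110763677, plus strand: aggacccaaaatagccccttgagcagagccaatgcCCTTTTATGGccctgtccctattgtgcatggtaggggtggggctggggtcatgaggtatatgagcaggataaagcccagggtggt
Tpm1, chr9:67049214-67049333, minus strand: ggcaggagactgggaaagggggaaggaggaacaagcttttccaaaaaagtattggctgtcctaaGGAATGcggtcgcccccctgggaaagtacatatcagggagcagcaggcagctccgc
Tnnc1, chr14:31208192-31208311, plus strand: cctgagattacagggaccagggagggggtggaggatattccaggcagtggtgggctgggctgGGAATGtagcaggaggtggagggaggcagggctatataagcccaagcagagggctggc
Tnnt2, chr1:135836214-135836333, plus strand: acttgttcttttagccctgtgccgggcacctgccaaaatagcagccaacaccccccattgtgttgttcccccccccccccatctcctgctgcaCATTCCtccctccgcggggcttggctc

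Over whole promoter windows (250 bases before to 50 after a start, both strands), the classes held different motifs. A CArG box was present in 14 of 76 windows of sarcomere genes (18.4%), against 535 of 32851 windows of all genes (1.63%). M-CAT was present in 24 of the 76 sarcomere windows (31.6%), against 14.7% of all windows, and the MEF2 site in 9 of them (11.8%), against 3.19%. The ETS core CCGGAAG, common in housekeeping promoters, was found in 0 of the 76 sarcomere windows, but in 16 of 71 windows of nuclear respiratory chain genes (22.5%) and in 27 of 74 windows of cytosolic ribosomal protein genes (36.5%), against 8.86% of all windows. The NRF1 site was found in 5 of the 71 respiratory chain windows (7.04%), against 0.971% of all. The ERR site was in 2 of 76 sarcomere windows and 2 of 71 respiratory chain windows, against 0.423% of all. TATAAA was in 15 of the 76 sarcomere windows (19.7%), against 13.6% of all. Windows were matched by symbol for 57 of 72 sarcomere genes, 66 of 81 respiratory chain genes and 62 of 84 ribosomal protein genes. A match of letters is a description of the sequence, and binding was not measured in these samples.

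The heart muscle markers Myh6, Actc1, Tnnt2 and Ttn were all present. Myh6, the fast cardiac myosin heavy chain, had 31562 CPM in LC 15, 15097 CPM in LC 25 and 15822 CPM in LC 26. Actc1, cardiac actin, had 10469, 9149 and 12220 CPM in the same order of mice, and Tnnt2, cardiac troponin T, had 8471, 7487 and 8734 CPM. Ttn, the giant spring titin, had 3932, 3255 and 3563 CPM. All 12 listed markers of ventricular cardiomyocytes, among them these genes and the ventricular light chain Myl2, were above 1 CPM in each mouse. Of the 6 atrial markers measured, 4 were at 1 CPM or more in all mice. The highest was Nppa, which ventricular muscle also expresses, with 538, 326 and 694 CPM, followed by Kcnj3 with 61.4, 66.5 and 45.9 CPM. The atrial light chains were low: Myl7 had 0, 0 and 1 read in LC 15, LC 25 and LC 26, and Myl4 had 9, 34 and 33 reads. A count of 0 allows up to 0.475 CPM in LC 15, 0.451 CPM in LC 25 and 0.363 CPM in LC 26, counting error only.

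Listed markers of other cells of the wall took small shares of the counts, which do not measure how many such cells were present. The 15 endothelial markers summed to 0.194% of the counts in LC 15, 0.151% in LC 25 and 0.149% in LC 26, led per kilobase by Ly6c1 and Fabp4. The 12 fibroblast markers summed to 0.2%, 0.106% and 0.108%, and the 12 smooth muscle and pericyte markers to 0.104%, 0.0759% and 0.077%. The 11 macrophage markers measured, among them Lyz2, C1qa and Csf1r, summed to 0.0339%, 0.0269% and 0.0272%. In bulk tissue, more cells of a type and more RNA per cell cannot be told apart. Red cell and platelet genes took 0.0333%, 0.0377% and 0.0434%, mostly globin. Of 11 lymphocyte and granulocyte markers none reached 1 CPM in all 3 mice, and Cd3e had 0, 0 and 1 read. Of the adipocyte markers, Adipoq, Plin1 and Retn had no read in any mouse, while Cidea had 26.6, 29 and 23.7 CPM. Fast skeletal muscle troponins were low: Tnnt3 had 5, 3 and 3 reads, Tnnc2 had 1, 2 and 1, and Tnni2 had 14, 4 and 23 (2.22, 0.601 and 2.78 CPM). The essential light chain Myl1 had more, with 202, 106 and 342 reads. The 5 skeletal muscle markers measured took 0.301%, 0.261% and 0.326% of the counts, nearly all from Ckm (3003, 2606 and 3260 CPM).

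The depth of this transcriptome was very uneven. At 1 CPM or more, 12631 genes were detected in all 3 mice and 14211 in at least 1, whereas 89 genes of the table had no read in any LC mouse. A mean of 100 CPM was reached by 1003 genes, a mean of 1000 CPM by 76 and a mean of 10000 CPM by 11. The 10 genes with most reads took 31.4% of the counts in LC 15, 38.5% in LC 25 and 36.3% in LC 26, and the top 100 took 50.6%, 56.5% and 55.6%. Of the top 10, 6 were mitochondrially encoded, and the other 4 were Myh6, myoglobin (Mb), tropomyosin (Tpm1) and the ventricular light chain Myl2. The plot of class shares gives the same picture by function: energy supply and contraction took most of the reads, and regulators took very few.

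**Figure D1:**
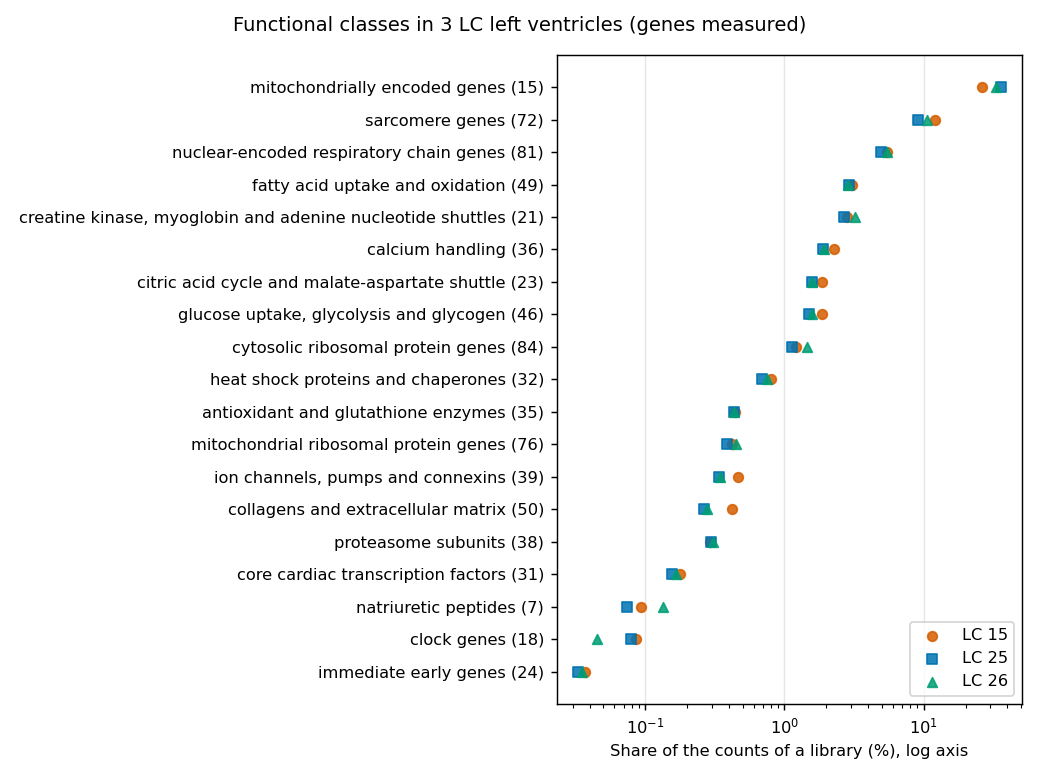
Share of the counts of each library (percent, log axis) taken by 19 functional classes in the 3 LC left ventricles. Each symbol is 1 mouse, and the number of measured genes of a class is in parentheses. Mitochondrially encoded genes took 26.3% to 36.1% of the counts, sarcomere genes 9.15% to 12.1%, and immediate early genes 0.0327% to 0.0368%.

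The mitochondrial genome gave the largest share. Its 13 mRNA genes and 2 ribosomal RNA genes together took 26.3% of the counts in LC 15, 36.1% in LC 25 and 32.8% in LC 26, a mean of 31.7% ± 5.01 (SD, n = 3). The exact binomial 95% interval for LC 15 alone was 26.24% to 26.3%, so that the mice differed by far more than counting error. All 15 genes were lowest in LC 15, where 25.8% of all 7877 genes with a mean of 10 CPM or more were lowest. COX1, the catalytic subunit of cytochrome oxidase, was the gene with most reads in every mouse, with 10.8%, 14.7% and 13.7% of all counts. CYTB, of complex III, followed with 42849, 55839 and 50355 CPM. The 18 transfer RNA genes of the mitochondrion that the table lists added 0.177%, 0.275% and 0.242%.

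Levels within the mitochondrial genome spanned a wide range, although its heavy-strand mRNAs are cut from a common precursor. COX1 stood at 84559 ± 13315 CPM per kilobase (SD, n = 3), CYTB at 43427 ± 5700 and ND1 at 33359 ± 4975. COX2 stood at 3500 ± 448 CPM per kilobase, COX3 at 2460 ± 468, ATP6 at 1460 ± 282, ND4L at 918 ± 219 and ND3 at 719 ± 129. These 5 genes have near-identical copies in nuclear DNA: 98% to 100% of their stretches of 50 bases also occur in annotated transcripts of other genes, against 0% for CYTB, ND1 and ND6. A nuclear ATP6-like symbol, LOC100503946, had 1163, 1690 and 1552 CPM in the same libraries, against 774, 1131 and 1078 CPM for ATP6 itself. Gm10222, whose every stretch of 50 bases is found in the mitochondrial ND4L gene, had 327, 526 and 462 CPM, against 218, 345 and 255 CPM for ND4L. How the counting step treated reads that fit several places was not given, so the levels of these 5 genes are uncertain, and the part of shared reads in them was not tested. ATP8, with 1606 ± 111 CPM per kilobase and 0% shared stretches, COX1, with 51.1% shared stretches and the highest level, and ND4, with 62.2% shared stretches and 15294 ± 2756 CPM per kilobase, did not follow the pattern. ND6, the only mRNA gene on the light strand, lies opposite the end of the ND5 region, and without strand information its 16019 ± 2378 CPM per kilobase (against 16932 ± 2847 for ND5) cannot be separated from reads of the opposite strand.

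**Figure D2:**
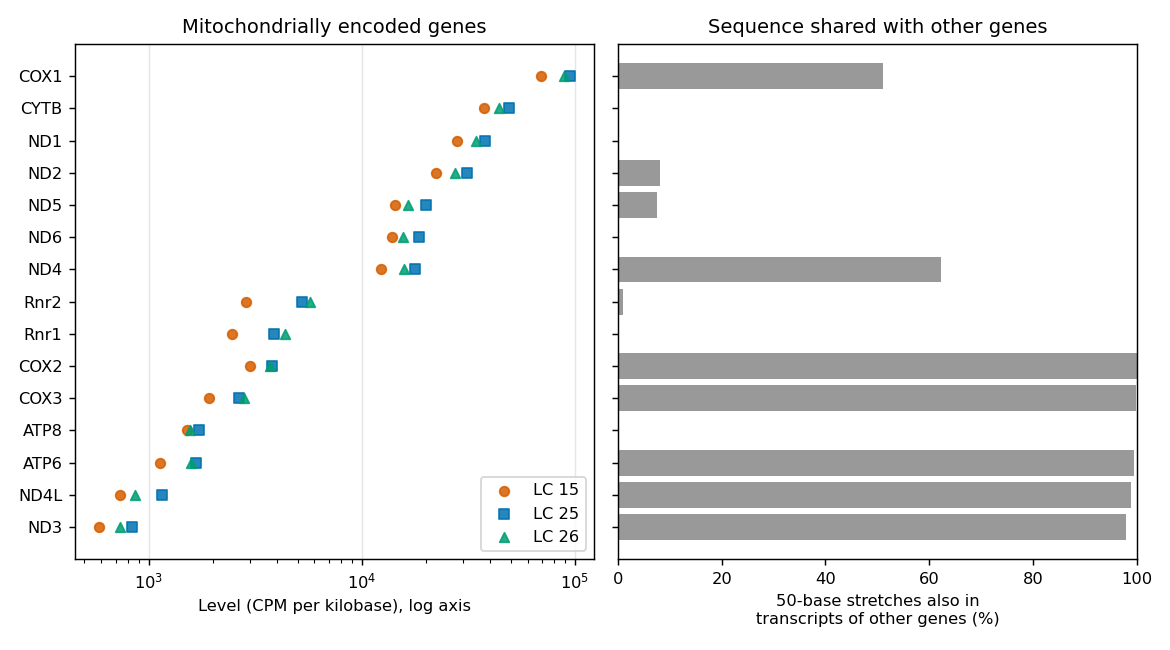
Left, level of each mitochondrially encoded gene (CPM per kilobase, log axis) in 3 LC mice, 1 symbol per mouse. Right, percent of the stretches of 50 bases of the same gene that also occur in annotated transcripts of other genes. COX2, COX3, ATP6, ND4L and ND3 have 98% to 100% shared stretches and lie at or below 3813 CPM per kilobase.

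Among the nuclear classes, which split energy metabolism into several lists, the sarcomere class had the largest share. The 72 measured sarcomere genes took 12.1% of the counts in LC 15, 9.15% in LC 25 and 10.6% in LC 26 (mean 10.6% ± 1.47, SD, n = 3), and 66 of them were at 1 CPM or more in all mice. With mitochondrially encoded genes left out of the totals, these shares were 16.4%, 14.3% and 15.8%. Thick filament genes alone took 6.29%, 4.06% and 4.5%, and thin filament genes 4.18%, 3.69% and 4.67%. The order therefore differed among mice: the thick filament class was ahead in LC 15 and LC 25, and the thin filament class in LC 26. Myh6, the gene with most reads of its class, had 2.09 times as many CPM in LC 15 as in LC 25.

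Per kilobase, small contractile and energy-carrying proteins led. Myl2, the regulatory light chain of the ventricle, was first with 13970 ± 1655 CPM per kilobase (SD, n = 3), and Mb, which stores oxygen, was second with 13210 ± 1515. Myl2 was above Mb in each of the 3 mice, but by the union of all exons Mb was first and Myl2 the third. Actc1 followed with 7205 ± 1046 CPM per kilobase, Fabp3, the fatty acid carrier of heart muscle, with 5110 ± 403, and Tpm1 with 4806 ± 682. Troponin I (Tnni3, 4788 ± 389) and troponin C (Tnnc1, 4787 ± 635) were at almost the same level, and Tpm1 did not differ from them beyond the spread. Troponin T (Tnnt2) stood lower, at 2472 ± 197 CPM per kilobase. Its 3 mice (2544, 2248 and 2623 CPM per kilobase) did not overlap with those of Tnni3 (4623, 4509 and 5232). This order rests on the length used, which was 3330 bases for Tnnt2 and 912 for Tnni3. By reads Tnnt2 was higher, with a mean of 8231 CPM against 4367 CPM. Which transcript lengths these hearts held was not measured.

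Length changed the ranks most for the giants. Ttn was 15th among nuclear genes by reads but 1211th per kilobase, with 33.5 ± 3.18 CPM per kilobase over a transcript of 106824 bases. Myh6 was first by reads and 9th per kilobase. Of the 20 highest nuclear genes per kilobase, 13 were also among the 20 with most reads, and 15 among the 20 highest when the union of all exons replaced the longest transcript. Several of the 20 carry caveats of sequence: 37.3% of the 50-base stretches of Fabp3, 34% of those of Mb and 60.3% of those of Pln also occur in other annotated transcripts, while Actc1 and Tnni3 share none.

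**Figure D3:**
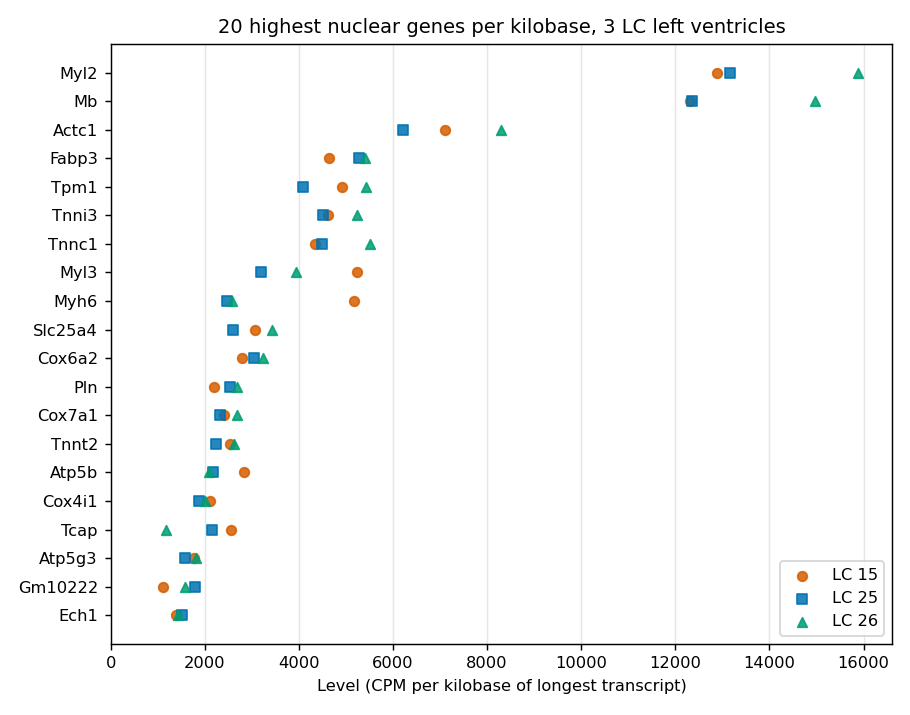
Level (CPM per kilobase of the longest transcript) of the 20 highest nuclear genes in 3 LC mice, 1 symbol per mouse. Myl2 and Mb lie between 12308 and 15875 CPM per kilobase in every mouse, above the range of Actc1 (6211 to 8296), and Myh6 is the gene whose LC 15 value lies farthest from the other mice in proportion.

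Energy metabolism followed contraction. The 81 nuclear-encoded subunits of the respiratory chain, all at 1 CPM or more in every mouse, took 5.46%, 4.91% and 5.46% of the counts in LC 15, LC 25 and LC 26. Per kilobase they were led by the muscle forms Cox6a2 (3031 ± 219) and Cox7a1 (2473 ± 181) of cytochrome oxidase, and by Atp5b, the catalytic subunit of ATP synthase (2371 ± 410). The 49 genes of fatty acid uptake and oxidation took 3.03%, 2.92% and 2.88%, a narrower spread among mice (SD 0.0792 points) than that of the sarcomere class (SD 1.47 points). Fabp3 was followed there by the dienoyl-CoA isomerase Ech1 (1444 ± 66.1 CPM per kilobase) and by Lpl, which frees fatty acids from lipoproteins (1114 ± 53.2). The citric acid cycle and malate-aspartate shuttle (23 genes) took 1.85%, 1.57% and 1.58%, and glucose uptake, glycolysis and glycogen (46 genes) 1.87%, 1.49% and 1.56%. Creatine kinase, myoglobin and nucleotide shuttles took 2.83%, 2.67% and 3.21%, with Slc25a4, the ATP/ADP exchanger, at 3032 ± 414 CPM per kilobase and mitochondrial creatine kinase Ckmt2 at 1200 ± 57.9.

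Calcium handling took 2.26%, 1.89% and 1.92% of the counts. Phospholamban (Pln), the brake of the calcium pump, stood at 2476 ± 257 CPM per kilobase, above the pump itself (Atp2a2, 1270 ± 358), without overlap between mice (2192, 2542 and 2693 for Pln, 1681, 1104 and 1026 for Atp2a2). The high share of Pln sequence found in another annotated transcript leaves its level uncertain. The release channel Ryr2 had 937, 848 and 752 CPM but, over its long transcript, only 50.3 ± 5.51 CPM per kilobase. Ion channels, pumps and connexins (39 genes) took 0.467%, 0.34% and 0.346%, led per kilobase by phospholemman (Fxyd1, 369 ± 20.5).

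The Z disc, which anchors the thin filaments and senses load, took 1.62%, 1.4% and 1.43% of the counts. Its highest members per kilobase were Tcap, the cap of titin (1963 ± 706), the small chaperone Cryab (1276 ± 129) and Fhl2 (1228 ± 141). Tcap was low in LC 26, with 2560, 2145 and 1184 CPM per kilobase in LC 15, LC 25 and LC 26. Heat shock proteins and chaperones took 0.797%, 0.695% and 0.752%, led by the cardiovascular form Hspb7 (356 ± 91.4 CPM per kilobase). Antioxidant and glutathione enzymes took 0.442%, 0.431% and 0.434%, with an SD of 0.00531 points, and Gpx4, which reduces lipid peroxides, was their highest member per kilobase (318 ± 18.3). In the citric acid cycle Mdh1 (1182 ± 60.1) and Idh2 (1046 ± 80.6) led per kilobase, and among the glucose genes Ldhb (1398 ± 27.7) and the aldolase Aldoa (1297 ± 129).

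Protein synthesis took little. The 84 cytosolic ribosomal protein genes took 1.2%, 1.13% and 1.44% of the counts in LC 15, LC 25 and LC 26, below the share of the respiratory chain in every mouse. Many of these genes share stretches with processed pseudogenes (for instance 71.3% of the stretches of Rps2 and 60% of those of Rplp1), so that reads could have been lost or split. The 76 mitochondrial ribosomal protein genes took 0.421%, 0.387% and 0.446%, and the 38 proteasome subunits 0.292%, 0.299% and 0.306%. Regulators were rarer: 31 cardiac transcription factors took 0.179%, 0.154% and 0.166% together. Hopx was their highest member per kilobase (302 ± 29.7 CPM per kilobase), and Mef2a (25.6 ± 0.436) and Srf (25.7 ± 6.74) were close to each other. Immediate early genes, which surge within minutes of tissue stress, took 0.0368%, 0.0327% and 0.035%, and the highest value of any of the 24 measured members was that of Jund in LC 15, with 55.4 CPM.

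In 44 gene families with at least 2 measured members (the sarcomeric actins counted both alone and within all actins), the adult ventricular or striated muscle form was listed first. It had the highest level per kilobase in all 3 mice in 40 families and more than 90% of the family in all 3 mice in 24. The SD of its share among mice had a median of 0.728 points and a maximum of 13.9 points. A share near its ceiling can move little in points even where the minor form varies widely, as Myh7 and Acta1 did below. Ckmt2, Tnnc1 and Tnni3 held 99.9% or more of their families, Tnnt2 held 99.6%, 99.4% and 99.5%, and the calcium pump Atp2a2 99.8%, 99.8% and 99.9%. Ryr2, Mybpc3, Casq2, Ckm and Tpm1 each held more than 98% in every mouse.

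Myosin heavy chain was less settled. Myh6 held 93.7% of the Myh6 and Myh7 total per kilobase in LC 15, 97% in LC 25 and 97.2% in LC 26 (mean 96% ± 1.97, SD, n = 3). Myh7, the slow form that prevails before birth and returns in stressed rodent hearts, had 13693 reads in LC 15, 3119 in LC 25 and 3895 in LC 26, or 2167, 469 and 471 CPM. LC 15 was thus 4.62 times the lowest mouse, and LC 25 and LC 26 were alike. Myh6 itself was higher in LC 15 by 1.03 on the log2 scale than in the mean of LC 25 and LC 26, and Myh7 by 2.2. The pair is near-identical in places, with 22.6% of the 50-base stretches of Myh6 found in Myh7, and D830015G02Rik, a transcript that shares 38.8% of its stretches with Myh7, moved with it (344, 102 and 94.9 CPM). Actc1 held 98.4%, 99.6% and 98.5% of the sarcomeric actins. Its skeletal partner Acta1 had 164, 35.2 and 177 CPM, low in LC 25 and close to each other in LC 15 and LC 26, whereas Myh7 was high in LC 15 alone.

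Metabolic isoforms were of both kinds. Nearly exclusive forms were the glucose transporter Slc2a4 (96.5%, 94.2% and 96.9%), the enolase Eno3 (95.5%, 94% and 95.2%) and the acetyl-CoA carboxylase Acacb (98.5%, 97.5% and 98%). The heart form of lactate dehydrogenase, Ldhb, held 77.2%, 80% and 77.2%, and the muscle subunits Cox7a1 and Cox8b held 81.1% to 81.7% and 82.4% to 84.8%, so that their ubiquitous partners were a measurable minority. Mixed families were the glycogen phosphorylases (Pygm 54.9%, 47% and 50.8%, with Pygb at 44.9%, 52.6% and 48.7%) and the 3 calmodulin genes, which encode the same protein. Hexokinase 2 held 59.9%, 76.4% and 72.1%, and Hk1 was higher in LC 15 (147, 46.5 and 53.1 CPM). Pdk4, a pyruvate dehydrogenase kinase, held 24.6%, 35.8% and 42.3% of its family, and Pdk2 held 61.9%, 41.8% and 36.9%. Eef1a1 exceeded the muscle form Eef1a2 in all 3 mice (57.8%, 72.5% and 66.3%), although 60.6% of its stretches occur elsewhere.

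Several channel and transcription factor families were shared among members. Cacna1c, the pore of the L-type calcium channel, held 84%, 79.5% and 76.2% of its family in LC 15, LC 25 and LC 26, and the gap junction protein Gja1 held 80.5%, 90.9% and 91.6%. Esrra, a nuclear receptor of mitochondrial genes, held 83.6%, 76.4% and 81.6%, Ppara, a receptor for fatty acids, 68.8%, 75.6% and 72.8%, and Gata4 64.6%, 73% and 64.8%. Mef2a led the MEF2 factors with 45.5%, 49% and 55.6%, followed by Mef2d with 38.6%, 31.5% and 30.6%. This order rests on the length used: by the union of exons Mef2d came first with a mean of 54.3%, and Mef2a had 33.3%.

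The widest isoform shift was that of the natriuretic peptides, hormones that heart muscle releases when it is stretched. Nppa held 86.9% of the Nppa and Nppb total per kilobase in LC 15, 69.7% in LC 25 and 59.3% in LC 26 (SD 13.9 points). Nppb had 73.4, 128 and 429 CPM, so that LC 26 was 5.84 times LC 15, while Nppa had 538, 326 and 694 CPM. Of the genes often read together as a fetal gene program, Nppa, Nppb and Acta1 were highest in LC 26 and Myh7 in LC 15. Nppa and Acta1 were lowest in LC 25, Nppb was lowest in LC 15, and Myh7 was about equally low in LC 25 and LC 26.

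**Figure D4:**
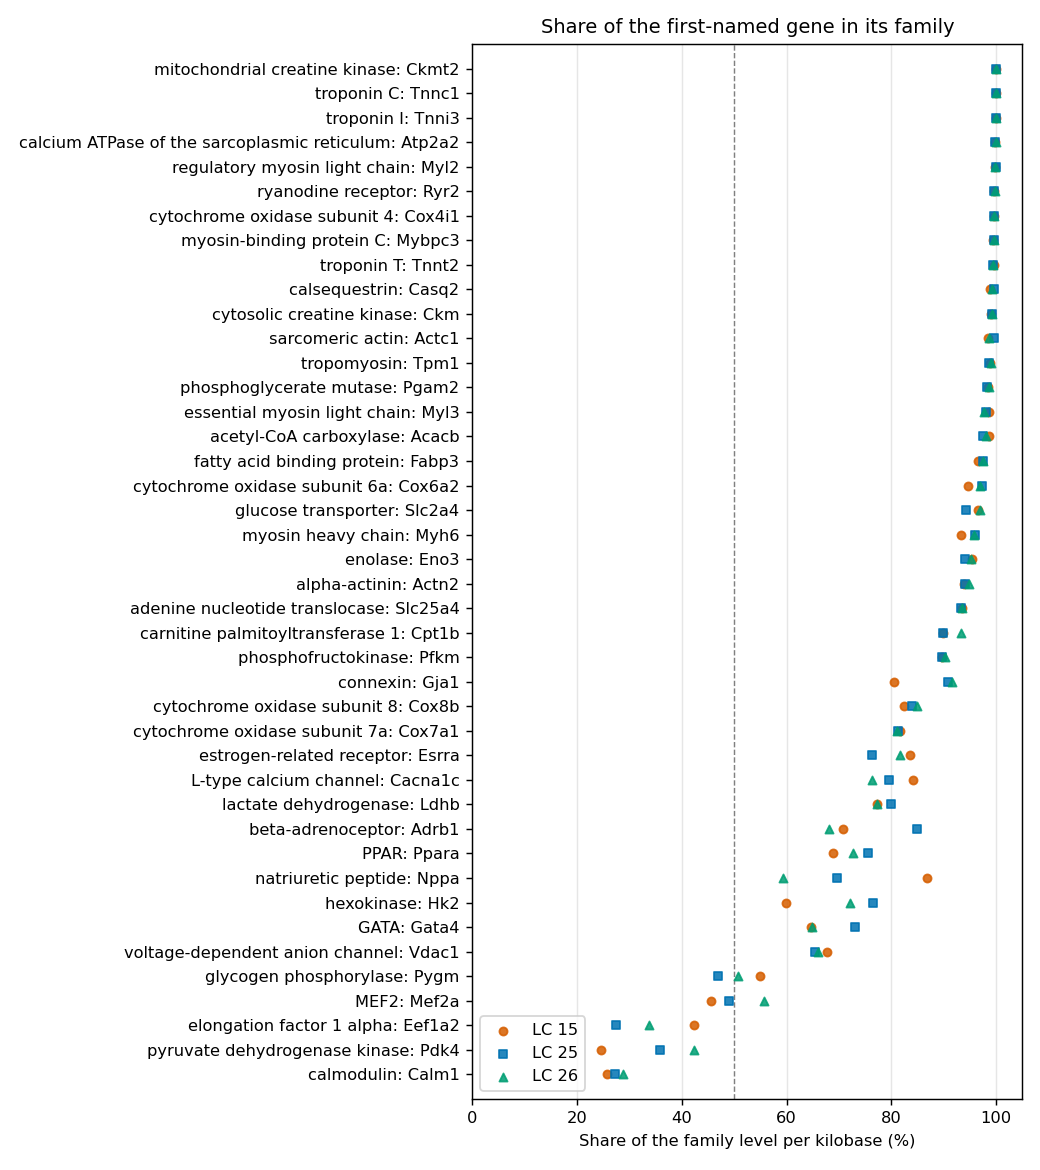
Share of the first-named gene in the level per kilobase of its family (percent), 42 families, 1 symbol per mouse. The dashed line marks 50%. The troponins and the calcium pump sit above 99% in all 3 mice, whereas Nppa runs from 59.3% to 86.9% and Pdk4 from 24.6% to 42.3%.

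Among the 7877 genes with a mean of 10 CPM or more, the highest mouse exceeded the lowest by more than 2-fold for 589 (7.48%). The median coefficient of variation was 14.1%, where counting error alone would give a median of 4.11%, so most of the spread lay above counting error. The biological coefficient of variation estimated across these genes by edgeR was 0.19. LC 15 decided much of it: without LC 15, the ratio exceeded 2 for 107 of 7712 genes (1.39%) and the median coefficient of variation was 8.39%, whereas 393 genes remained above 2 without LC 25 and 366 without LC 26. LC 15 was more than 2-fold above the mean of LC 25 and LC 26 for 257 genes (3.26%) and more than 2-fold below it for 40 (0.508%). It was the highest mouse for 52.0% of genes and the lowest for 25.8%, while LC 26 was lowest for 37.3%. The balance depended on scaling. With TMM scaling 144 genes were above and 56 below, and with mitochondrially encoded genes left out of the totals 141 and 102. Under TMM scaling LC 15 was the highest mouse for 40.7% of genes and the lowest for 38.9%, and with mitochondrially encoded genes left out it was highest for 35.6% and lowest for 43.7%, so that the direction turned round. The shares of 52.0% and 25.8% used beside gene groups hold for CPM over library totals. TMM scaling moved the median log2 ratio of LC 15 to the others over all genes from 0.11 to -0.0047.

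The ratio of LC 15 to the other mice, in CPM over library totals, rose with GC content. With the genes cut into 5 equal bins by GC content of the transcript, from low to high, the median log2 ratio of LC 15 to the mean of LC 25 and LC 26 was -0.12, 0.01, 0.16, 0.30 and 0.45, and the share of genes with a ratio above 2 among mice was 1.99%, 3.08%, 4.42%, 10.4% and 17.1%. In 5 bins by transcript length the median ran only from 0.02 in the shortest to 0.18 in the longest. The part of GC content in single results was not tested, but values relative to the median of the same GC bin can be given. Myh6 remained 0.58 above that median on the log2 scale, and Myh7 1.75.

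Classes differed in how much they varied. Mitochondrial ribosomal proteins (0 of 75 genes with a ratio above 2), heat shock proteins and chaperones (0 of 29) and the respiratory chain (1 of 78) lay below the 7.48% of all genes. Proteasome subunits (2 of 37) and cytosolic ribosomal proteins (3 of 68) were nearer to it. Without LC 15 these classes had 1 of 37 and 2 of 69 genes above 2, where 1.39% of all genes were above it. Sarcomere genes then had 2 of 61 and fatty acid genes 1 of 48. These counts are too small to set a class apart from all genes. With all 3 mice, fatty acid genes (6 of 48) and sarcomere genes (11 of 61) lay above the 7.48%. By median coefficient of variation, against 14.1% for all genes, heat shock proteins and chaperones lay above (16.8%) and fatty acid genes below (11.3%). Sarcomere genes were close to it (14.3%). The median coefficient of variation was lowest for proteasome subunits (5.8%) and the citric acid cycle (8.1%), among the larger classes described here. The 2 classes with the widest spread were matrix and clock genes.

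Extracellular matrix genes were high in LC 15. The 50 measured genes took 0.422% of the counts in LC 15, 0.266% in LC 25 and 0.279% in LC 26. Of the 39 tested, 23 had a ratio above 2 (59%, against 7.48% of all genes), and LC 15 was the highest mouse for 33 (against 52.0%). Without LC 15 the ratio exceeded 2 for 4 of 38 (10.5%), against 1.39% of all genes. It did so for 13 of 40 without LC 25 (against 4.95%) and for 16 of 40 without LC 26 (against 4.58%). With TMM scaling 19 of 39 were above 2, against 5.77% of all genes. Biglycan (Bgn), a small proteoglycan, had 144, 54 and 48.7 CPM, and Col1a2, a chain of fibrillar collagen, had 70.7, 23.6 and 26.2 CPM. The basement membrane collagen Col4a1 had 190, 72.3 and 131 CPM and the metalloproteinase inhibitor Timp3 254, 139 and 84.9 CPM. Decorin (Dcn), the matrix gene with most reads, varied little (376, 324 and 296 CPM). Of the 39 genes, 35 lay above the median of their GC bin, by a median of 0.57 on the log2 scale. Markers of several cell types of the wall had sums highest in LC 15, as given above. LC 15 was the highest mouse for 8 of 11 fibroblast markers tested and for 9 of 11 of smooth muscle and pericytes. It was the highest for 13 of 15 of endothelial cells (each against 52.0% of all genes). Above the median of their GC bin were 10 of 11, 9 of 11 and 13 of 15 of these, against 3900 of 7801 of all genes. For macrophages LC 15 was the highest mouse for 6 of 7 markers tested, but only 3 of 7 lay above the median of their GC bin. These counts are small, and those of the highest mouse are given for CPM over library totals only. The share of all genes was 40.7% under TMM scaling and 35.6% with mitochondrially encoded genes left out. Of the 12 fibroblast markers 6 are also in the matrix list, and the part of these cell types in the matrix result was not tested.

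Clock genes set LC 26 apart. The clock is a feedback loop in every cell in which Arntl and Clock drive Per, Cry and the output factors Dbp, Tef and Hlf, whose mRNAs rise and fall over the day, with Arntl in opposite phase. Of 14 tested genes 9 had a ratio above 2 (64.3%, against 7.48%), and LC 26 was the lowest mouse for 11 of them (against 37.3%). Dbp had 74.2 CPM in LC 15, 72.5 in LC 25 and 16.4 in LC 26. Per3 had 48, 67.4 and 14.1 CPM, Per2 43, 33.4 and 9.92 CPM, and Tef 231, 200 and 77.3 CPM. Clock went the other way, with 20.7, 18.3 and 45.7 CPM. Arntl, below the level minimum and named after its values were seen, had 3, 5 and 104 reads, or 0.475, 0.752 and 12.6 CPM. Without LC 26 the ratio exceeded 2 for 1 of 14 clock genes, against 4.58% of all genes. Without LC 15 it did so for 8 of 14, against 1.39%. The hour at which each heart was taken is not stated in the labels or the methods, and its part in these values was not tested.

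**Figure D5:**
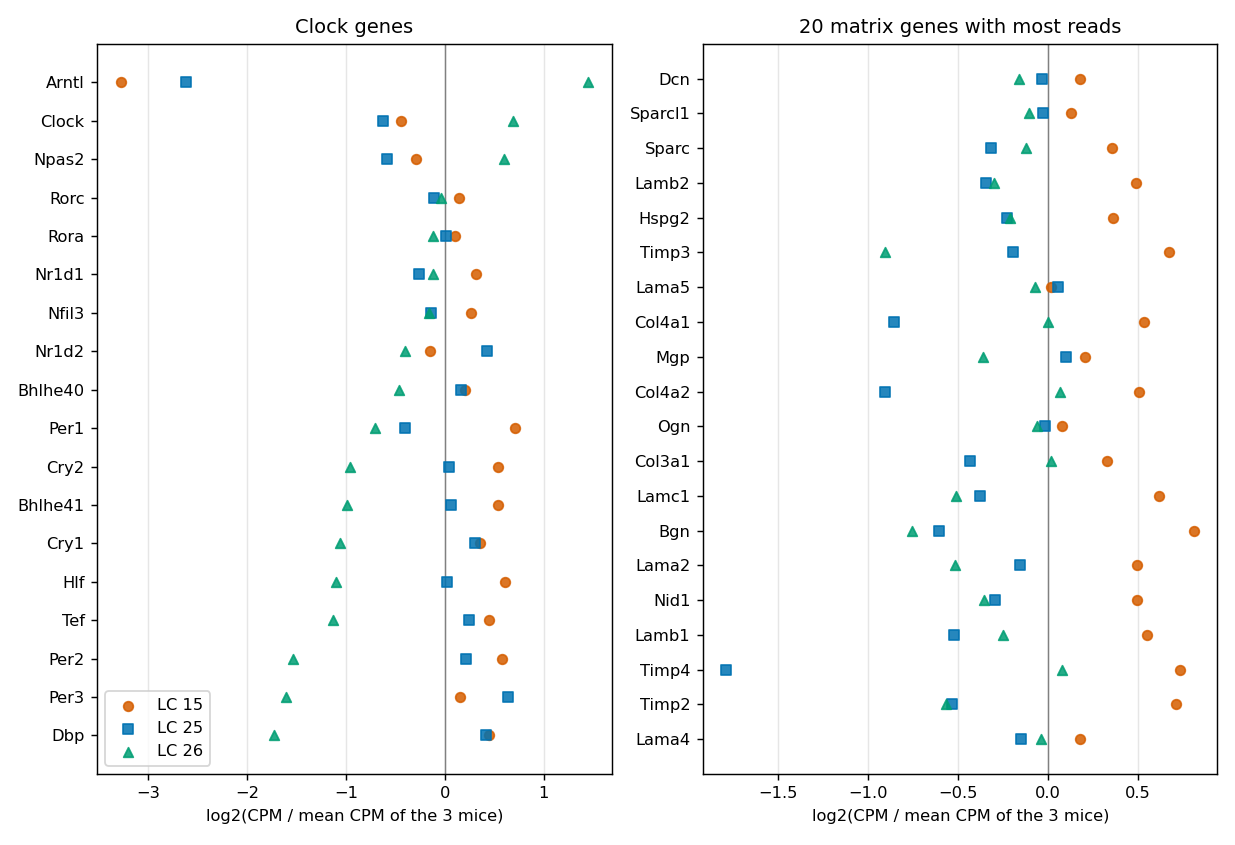
Level of each gene in each LC mouse as log2 of its CPM over the mean CPM of the 3 mice, for 18 clock genes (left) and the 20 matrix genes with most reads (right). LC 26 is lowest for most clock genes and highest for Arntl, Clock and Npas2, whereas LC 15 is highest for most of the matrix genes.

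Single genes of wide spread named each mouse in turn. Among the 2211 genes with a mean of 50 CPM or more, Ddit4, a stress-induced brake on mTOR, had the highest ratio, with 117 CPM in LC 15, 16.8 in LC 25 and 50.2 in LC 26 (6.94-fold). Igtp and Iigp1, GTPases induced by interferon gamma, were high in LC 25 alone, at 20.3, 126 and 27.1 CPM and at 45.9, 214 and 49 CPM, while H2-Aa, a class II antigen-presenting chain, was low in LC 15 (27.4, 85.7 and 59 CPM). The transferrin receptor Tfrc, which imports iron, had 64.4, 26.3 and 133 CPM, and Mid1ip1, an activator of acetyl-CoA carboxylase, 161, 78 and 28.2 CPM. Htra3 had 92.3, 23.8 and 34.5 CPM. Highest in LC 15 relative to the others after Myh7 and Ddit4 were also Hk1, App, Bgn and Dag1. Clu had 191, 396 and 366 CPM and was among the lowest, with mitochondrial transfer RNAs (TrnI, 60.3, 139 and 126 CPM) and the large mitochondrial ribosomal RNA Rnr2 (4518, 8316 and 9030 CPM).

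At the other end stood genes with nearly equal levels in all 3 mice. The closest, Rab2a, a GTPase of early secretory traffic, had 861, 904 and 1125 reads, or 136.2, 135.9 and 136 CPM, a coefficient of variation of 0.116%, below the 1.87% that counting error would give, and these genes were picked for their closeness among 2211. Dlg1, Rab18, Naa50, Brk1, Emc3, Cct7, Klhl41, Atxn10 and Pafah1b1 followed, all with coefficients under 1%.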

How the data were processed

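Left ventricular RNA of 3 littermate control (LC) mice was sequenced, 1 library per mouse, without pooling. The authors extracted total RNA with TRIzol, made TruSeq libraries, sequenced them on an Illumina HiSeq X instrument and deposited whole-number read counts, not normalized, for each gene symbol. Build mm8 is named in the submitters' processing notes, while the aligner, the counting step and strandedness were not given in the sources used here. Fold changes, p-values and false discovery rates of the authors' own comparison were deposited too and were not used, nor were the CMNKO libraries.

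Counts were divided by the library total and multiplied by 1000000 (CPM). Lengths were the longest GENCODE vM21 transcript, matched for 15865 of 17121 symbols (the others held 0.957% of counts). Spread was described for genes with a mean of 10 CPM or more, with edgeR 4.0.16 (R 4.3.3) for the biological coefficient of variation, after a test on simulated data. Exact (Clopper-Pearson) 95% intervals and limits for a count of 0 cover counting error only. The members and gene lists were chosen with earlier results of these data known. Genes were named by rule: the 30 with most reads, the 20 highest nuclear genes per kilobase, all family members, the 4 highest of each list per kilobase, and, at a mean of 50 CPM or more, the 10 at each end of the spread and of the ratio of LC 15 to the other mice. Further members of lists were named as examples after their values were seen. Alternatives were TMM scaling, totals without mitochondrially encoded genes, other minimum levels, no length or the union of exons, and each mouse left out. The ratio of LC 15 to the others, the clock and matrix counts under these settings, GC content and shared stretches of 50 bases were added after seeing the data. A gene family that is counted among the 44 is not reported by name here. Promoters were RefSeq sequence of GRCm38.p6. Python 3.11.15 with pandas 2.3.3, NumPy 2.4.6 and SciPy 1.17.1 was used.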

Additional observations from a re-analysis of the deposited data

How the results depend on the processing

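With mitochondrially encoded genes left out, the share of the 10 genes with most reads was 15.2%, since 10 nuclear genes were then summed. Over the smaller totals sarcomere genes took 15.5%, nuclear respiratory chain genes 7.74% and cytosolic ribosomal protein genes 1.85%. The count of genes with a ratio above 2 was 2200 at a minimum mean of 1 CPM and 125 at 50 CPM, where more or fewer genes were tested. With each mouse left out it ran from 107 (without LC 15) to 393 (without LC 25), and the median coefficient of variation from 8.39% to 13.9%. Genes more than 2-fold higher in LC 15 numbered 144 with TMM scaling, 141 without mitochondrially encoded genes and 58 at a minimum of 50 CPM, and those more than 2-fold lower 102 without mitochondrially encoded genes and 6 at 50 CPM. Clock genes with a ratio above 2 numbered 1 without LC 26, where 4.58% of all genes were above 2. Matrix genes numbered 4 without LC 15 (against 1.39%) and 13 without LC 25 (against 4.95%). Without division by length, the first-named share moved by 1 SD or more in 21 of 44 families, by up to 20.5 points, and crossed 50% in 3, among them glycogen phosphorylase and MEF2. With the union of exons 24 moved, by up to 16.3 points, and MEF2 crossed 50%, with Mef2d first in place of Mef2a. The Myh6 and Actc1 shares, the number of genes detected and the biological coefficient of variation stayed within 1 SD (shares) or 1.5 times (count and coefficient) of the reported value under each alternative run for them. The protein identity comparison was not run. No paired analysis was possible because only 1 group was described and no test was made. With 3 mice of 1 group, precision is limited by their number rather than by depth for abundant genes.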
